A study of Homo sapiens with 24 samples.

Results

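The nuclear-encoded subunits of the mitochondrial respiratory chain were followed in polysome profiles of PANC-1 cells, an established human cell line of pancreatic ductal carcinoma origin. Members were taken by gene symbol: the NDUFA, NDUFB, NDUFC, NDUFS and NDUFV genes, SDHA to SDHD, the UQCR genes, CYC1, the tissue-wide and tissue-restricted COX4 to COX8 genes and the ATP5 genes. Of 267 names that matched, 171 pseudogenes and 6 antisense or divergent transcripts were left out, and 9 of the remaining 90 were left out because at least 1 library had a count of 0. The 81 members are part of the 12058 genes with no zero count. They comprise 36 subunits of complex I, 4 of complex II, 10 of complex III, 12 of complex IV and 19 of complex V, with NDUFA4 counted in complex IV. The 9 genes left out are COX8C, COX7A1, COX4I2, COX6A2, COX6B2, COX7B2, NDUFA4L2 and the read-through loci NDUFC2-KCTD14 and ATP5MF-PTCD1, none of which exceeded 33 counts in a library.

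Cells received the solvent DMSO, CID661578 at 40 µM or cercosporamide at 5 µM for 6 h, with 4 biological replicates each. CID661578 and cercosporamide are small molecules that the study relates to MNK2, a kinase of the cap-binding factor eIF4E. From each of the 12 plates, total cytosolic RNA and RNA bound to more than 3 ribosomes were sequenced separately, which gave 24 libraries in 6 groups. The line was not genetically altered, and a single line was used. The question asked of these libraries was which mRNAs change in translation efficiency (TE), meaning a change in polysome RNA beyond that in total RNA of the same plate.

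The respiratory chain passes electrons from NADH (complex I) and succinate (complex II) through complex III to oxygen at complex IV, and the proton gradient made on the way drives ATP synthase, complex V. Complexes I, III, IV and V are built from subunits of both genomes, whereas all subunits of complex II are encoded in the nucleus. The nuclear-encoded ones are translated on cytosolic ribosomes and imported, and many of the accessory subunits are very small proteins.

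Their open reading frames were short. In GENCODE v44 (GRCh38), the median coding length of the 81 members was 408 nt, from 153 to 2181 nt, against 1383 nt over the 10094 tested genes with a coding length. Complex IV had the shortest median, 254 nt, and complexes III, V, I and II had medians of 303, 408, 434 and 674 nt. The shortest coding sequence in each of complexes I, III, IV and V is printed whole, because the results below follow coding length. Capitals mark the start and the stop codon, and the sequences read 5′ to 3′ from the canonical transcripts.
NDUFB1 (accessory subunit of complex I, 58 codons, gene on the minus strand at chr14:92116122-92121917): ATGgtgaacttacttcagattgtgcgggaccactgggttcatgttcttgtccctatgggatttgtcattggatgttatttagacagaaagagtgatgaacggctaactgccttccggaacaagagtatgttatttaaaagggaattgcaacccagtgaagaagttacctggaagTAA
UQCR11 (small subunit of complex III, 56 codons, minus strand, chr19:1597169-1605473): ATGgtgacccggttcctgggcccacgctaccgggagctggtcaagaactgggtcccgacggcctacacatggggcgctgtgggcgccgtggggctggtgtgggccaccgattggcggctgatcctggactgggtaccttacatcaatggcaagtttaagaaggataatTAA
COX7C (small subunit of complex IV, 63 codons, plus strand, chr5:86617928-86620962): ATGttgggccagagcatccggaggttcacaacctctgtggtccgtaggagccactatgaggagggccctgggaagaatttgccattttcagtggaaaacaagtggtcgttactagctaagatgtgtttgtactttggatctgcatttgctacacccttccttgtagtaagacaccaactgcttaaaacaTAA
ATP5F1E (epsilon subunit of the F1 part of complex V, 51 codons, minus strand, chr20:59025475-59032345): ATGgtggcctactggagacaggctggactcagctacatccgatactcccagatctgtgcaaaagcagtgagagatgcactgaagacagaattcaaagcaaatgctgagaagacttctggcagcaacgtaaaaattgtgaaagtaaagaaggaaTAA

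Leaders were short as well. A 5′ UTR of 30 nt or less was annotated for 29 of the 81 members (35.8%), against 11.6% of the tested genes, with 17 of 36 in complex I, 2 of 4 in complex II, 5 of 10 in complex III, 2 of 12 in complex IV and 3 of 19 in complex V. The letters ATGGCGGC at the annotated start codon, on the sense strand, were found in 13 members (16%) and in 4.71% of the tested genes. The same letters form the core of the TISU element, known from genes with very short leaders. Windows of 4 members are printed to show how close these start codons lie to the 5′ end of the mRNA, with the letters in capitals and 12 leader bases before them, or 11 where the leader is no longer.
NDUFS6 (11-nt leader, plus strand, chr5:1801407-1801429): agcggcgcaaaATGGCGGCggcg
SDHB (13-nt leader, minus strand, chr1:17054008-17054031): tcaggagccaagATGGCGGCggtg
NDUFA9 (13-nt leader, plus strand, chr12:4649115-4649138): ttgtgggaaaagATGGCGGCtgcc
UQCR10 (30-nt leader, plus strand, chr22:29767387-29767410): ctgtgaagaaacATGGCGGCcgcg

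The deposited table holds raw read counts per gene and library. Library totals lay between 9268041 and 12184749 counts, except for the polysome library of cercosporamide replicate 4, which had 1592459. Of 9 markers of pancreatic duct epithelium, 7 had at least 10 counts in every total RNA library, with summed levels of 5561.3 to 12722.2 CPM (a gene's counts relative to the library total). The mesenchymal markers VIM, CDH2 and ZEB1 passed as well, with a summed level of the list of 731 to 1208.4 CPM. Acinar, endocrine and endothelial markers summed to at most 1.15 CPM, and of 3 leukocyte markers CD68 alone had counts at that level. In bulk RNA, fewer cells with an mRNA and less of it per cell cannot be told apart. Levels below are CPM scaled by the trimmed mean of M values (TMM), and changes are log2 values with their standard error (SE).

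In total RNA of the DMSO cells, the 81 members together took 48226.2, 53418.4, 34484.0 and 33976.6 CPM in replicates 1 to 4, and in polysome RNA 27298.0, 28835.8, 23940.2 and 19880.1 CPM. The polysome sum was lower than the total sum in each of the 4 plates. Per kilobase of coding length, the DMSO total RNA level was highest for complex IV, with a median of 3130.1 CPM over its 12 members, and the medians of complexes III, I, V and II were 768, 613, 582 and 520 CPM. Per kilobase of the whole canonical transcript complex IV was again highest, at 1172.4 CPM against 228 to 398 CPM for the others. Within complex V, ATP5MGL stood at 5.9 CPM per kilobase of coding length and ATP5MK, a small membrane subunit, at 4019.9.

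In untreated cells, most subunits were under-represented on heavy polysomes. With DMSO, 61 of 81 members were lower and 6 were higher in polysome than in total RNA (edgeR's quasi-likelihood test, Benjamini-Hochberg adjusted p below 0.15 and more than 1.2-fold), where 29.6% of all tested genes were lower and 26.4% higher. The median log2 difference was −0.89, against −0.01 over all genes. All 12 subunits of complex IV were lower (median −1.34), as were 8 of 10 in complex III (−1.14), 26 of 36 in complex I (−0.88), 13 of 19 in complex V (−0.61) and 2 of 4 in complex II (−0.32). Medians of the 81 members in the 4 plates were −0.85, −0.76, −0.89 and −1.15.

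The subunits highest on polysomes were large, catalytic or core proteins. SDHA, the flavoprotein subunit of succinate dehydrogenase, was 2.22-fold higher in polysome than in total RNA (log2 1.15, SE 0.158, edgeR adjusted p = 3.19e-06). Its levels in DMSO total RNA were 84.1, 66.5, 130 and 137 CPM in replicates 1 to 4, and 217, 129, 328 and 262 CPM in polysome RNA. The polysome value exceeded the total value in each plate. Other members called higher were the core complex I subunits NDUFS1 (0.68) and NDUFV1 (0.66), the alpha subunit ATP5F1A (0.56) and the core protein UQCRC2 of complex III (0.54).

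The lowest were UQCRQ of complex III and, in ATP synthase, ATP5F1E and ATP5MK, at −2.35 (SE 0.194), −2.32 (SE 0.198) and −2.21 (SE 0.182). UQCRQ, a small ubiquinone-binding subunit, had 1681.8, 1419.9, 853 and 867 CPM in DMSO total RNA and 278, 330, 172 and 165 CPM in polysome RNA, so the ranges did not overlap. These 3 coding regions have 246, 153 and 174 nt. Within complex I, 3 of the 7 nuclear-encoded core subunits were higher and 2 were lower, and of the 29 accessory subunits none was higher and 24 were lower. Median coding lengths of these sets were 792 and 387 nt.

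**Figure D1:**
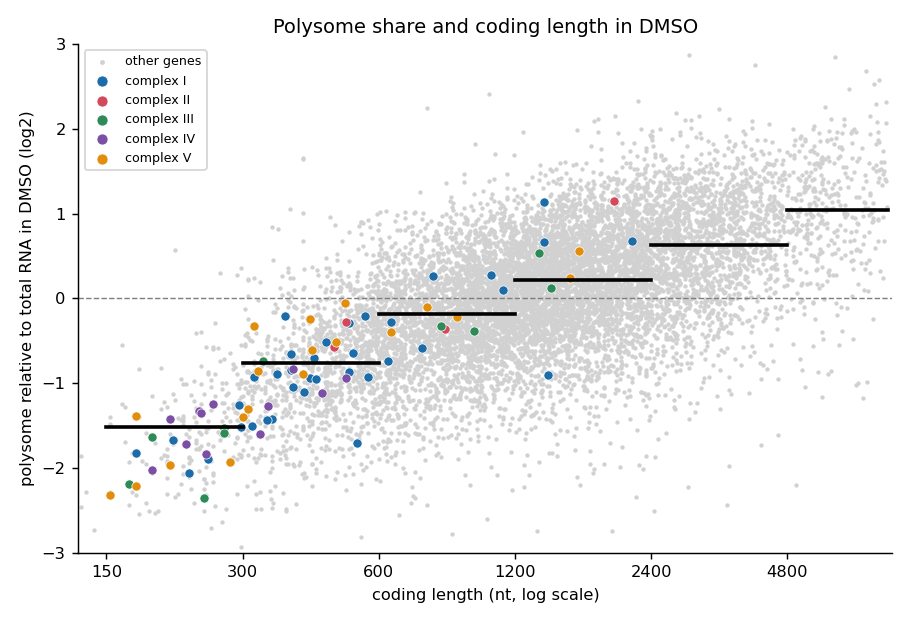
Polysome relative to total RNA in DMSO (log2, y axis) against coding length in nt (log scale, x axis), with members coloured by complex, other tested genes in grey and black bars for the medians of the other genes within length ranges. Members lie along the slope of the other genes: the 24 members of up to 300 nt all lie below 0, and those above 0.5 have more than 1200 nt. Genes outside the axes are not drawn.

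Polysome share followed coding length. Among members of up to 300 nt, all 24 were lower, with a median of −1.70, beside −1.54 and 96.4% lower among 195 other genes of that length. The 36 members of 301 to 600 nt had a median of −0.87 (others −0.76), the 12 of 601 to 1200 nt −0.30 (others −0.19) and the 9 of 1201 to 2400 nt 0.56 (others 0.21). Across the 81 members, Spearman's rho between the log2 difference and log2 coding length was 0.863, and 0.606 across 10094 genes. These are descriptions across genes that share the same libraries. After a trend on coding length was removed in every library, 20 members were higher and 10 lower in place of 6 and 61. In that setting, 21.3% of all genes were higher and 23.7% lower.

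With cercosporamide, TE fell for a large share of the subunits. Of 81 members, 37 had a lower TE (45.7%) and 2 a higher TE by edgeR's quasi-likelihood test at the same thresholds, where 12.6% of all tested genes were lower and 15.8% higher. The median change of the members was −0.48, a fold of 0.715, and that of all genes was 0.00. Of the 37, 28 had a negative value in 4 of 4 plates. The spread between replicates was wide: the medians of the 81 members were −1.12, −0.59, −0.42 and 0.04 in replicates 1 to 4, whose all-gene medians lay between −0.03 and 0.12. The number called lower was 19 without replicate 1, 18 without replicate 2 and 48 without replicate 4, the replicate with the shallow polysome library. The shares of all genes called lower in these fits were 8.4%, 6.37% and 10.1%, in that order. Of the 37, 15 were called in each of the 4 fits that left out 1 replicate. By analysis of partial variance, a regression of polysome on total RNA, 15 were lower and 2 higher, where 11.5% of all genes were lower and 15% higher.

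Complex IV, which reduces oxygen, had the largest share of calls: 10 of its 12 subunits had a lower TE, and all 12 values lay between −1.12 and −0.39, with a median of −0.77. Medians within replicates were −1.39, −0.84, −0.47 and −0.46. The largest decrease was in COX7C, whose sequence is printed above. Its total RNA was 751, 1431.2, 505 and 463 CPM with DMSO and 1314.8, 1385, 1099.9 and 945 CPM with cercosporamide. Its polysome RNA was 182, 292, 138 and 128 CPM with DMSO and 82.8, 177, 174 and 125 CPM with cercosporamide. Total RNA was higher with cercosporamide in 3 of 4 replicates and polysome RNA was lower in 3 of 4, and both pairs of ranges overlapped. The TE of COX7C fell by 1.12 (SE 0.251, edgeR adjusted p = 0.0042).

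Larger subunits of complex IV fell too. COX4I1, the common isoform of a subunit with a regulatory role, changed by −0.94 (SE 0.25, edgeR adjusted p = 0.0126), and its polysome levels of 252 to 404 CPM with cercosporamide overlapped the 384 to 582 CPM with DMSO. COX5A and COX5B changed by −0.72 (SE 0.223) and −0.73 (SE 0.237). NDUFA4, first described in complex I, changed by −0.72 (SE 0.259, edgeR adjusted p = 0.0581). COX6C (−0.41) and COX6A1 (−0.39) were the 2 that did not pass, COX6C being named after its value was seen. COX7A2 and its paralog COX7A2L, a factor in joining complexes III and IV, were at −0.99 and −0.78. COX4I1, COX7A2 and COX7C were called in each of the fits that left out 1 replicate, and the calls of the other 7 were lost in at least 1 of them.

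Complex I had 14 subunits with a lower TE and 1 with a higher TE among 36, with a median of −0.46. All 14 were accessory subunits, out of 29, and none of the 7 core subunits was called lower. NDUFB1, the shortest, showed the largest decrease in this complex, −1.40 (SE 0.246, edgeR adjusted p = 0.000649). Its total RNA was 106, 152, 64.6 and 79.9 CPM with DMSO and 130, 133, 157 and 127 CPM with cercosporamide. Its polysome RNA was 31.2, 43.3, 18.2 and 21.6 CPM with DMSO and 13, 19.9, 16.5 and 9.27 CPM with cercosporamide, lower in each replicate. NDUFC1, another small membrane subunit, changed by −0.97 and NDUFB7 by −0.80 (SE 0.291, edgeR adjusted p = 0.062). Replicate values of NDUFB7 were −1.76, −1.46, −0.05 and 0.10. Its call was lost without replicate 1 (−0.47, edgeR adjusted p = 0.349) or replicate 2 (−0.57, edgeR adjusted p = 0.355).

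NDUFS1, the largest iron-sulfur subunit and the longest member at 2181 nt, went the other way. Polysome RNA was 132, 72.7, 160 and 161 CPM with DMSO and 207, 156, 215 and 214 CPM with cercosporamide, higher in each replicate. Total RNA was 85.7, 64.8, 76.6 and 88.6 CPM with DMSO and 62.3, 46.2, 86.4 and 73.9 CPM with cercosporamide, so these ranges overlapped. The TE of NDUFS1 rose by 0.91 (SE 0.248, edgeR adjusted p = 0.0144), a call lost without replicate 2 (0.68, adjusted p = 0.168). The core subunits NDUFV1 (0.29), NDUFS7 (−0.23) and NDUFS8 (−0.41) did not pass.

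In complex II, SDHC, a membrane anchor of succinate dehydrogenase, was the single member called, at −0.55 (SE 0.248, edgeR adjusted p = 0.136). Its replicate values were −1.19, −0.02, −0.77 and −0.21, and the call was lost when replicate 1, 2 or 3 was left out. The flavoprotein SDHA was at 0.19, the iron-sulfur subunit SDHB at −0.30 and the other anchor SDHD at 0.28, and none of these passed.

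Complex III had 4 of 10 subunits with a lower TE, all short. UQCRQ changed by −1.28 (SE 0.264, edgeR adjusted p = 0.002), with replicate values of −2.19, −1.44, −1.0 and −0.49. Its total RNA was 2728.4, 1812.3, 1781.3 and 1487.4 CPM with cercosporamide, and its polysome RNA 98.7, 156, 179 and 201 CPM, against the DMSO values given above. UQCR11 changed by −1.17 (SE 0.237) and UQCRH, the hinge protein beside cytochrome c1, by −0.70 (SE 0.241). The UQCRH call was lost without replicate 1. UQCRHL, an intronless copy of UQCRH, was at −0.60 (SE 0.28), a call lost without replicate 1, 2 or 3. By the counter's defaults, reads that map to several places were counted at each, so the values of this pair cannot be told apart. The catalytic and core subunits did not pass: CYC1 (cytochrome c1) was at 0.20, UQCRFS1 (the Rieske iron-sulfur protein) at −0.33, UQCRC1 at 0.19 and UQCRC2 at 0.49.

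In ATP synthase, 8 of 19 subunits had a lower TE and ATP5F1A a higher one, and the median was −0.51. The central-stalk subunits ATP5F1E and ATP5F1D changed by −1.42 (SE 0.281, edgeR adjusted p = 0.0016) and −0.93 (SE 0.277, edgeR adjusted p = 0.0242). The ATP5F1D call was lost without replicate 2 (−0.69, edgeR adjusted p = 0.226). ATP5F1E polysome RNA was 16.1, 24.6, 12.6 and 17.7 CPM with DMSO and 4.33, 10.1, 12.5 and 13.9 CPM with cercosporamide, lower in each replicate. Its total RNA was 77.3, 134, 73 and 71.9 CPM with DMSO and 92.8, 143, 141 and 121 CPM with cercosporamide, higher in each replicate. The membrane subunit ATP5MK was at −1.35 (SE 0.249, edgeR adjusted p = 0.00088).

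The 3 genes of the c ring encode the same mature protein with different import sequences. ATP5MC3 changed by −1.09 (SE 0.27, edgeR adjusted p = 0.00805) and ATP5MC2 by −0.56 (SE 0.255, edgeR adjusted p = 0.141), whereas ATP5MC1 was at −0.48 (SE 0.255) and did not pass. The ATP5MC2 call was lost without replicate 1, 2 or 3. The catalytic beta subunit ATP5F1B, the most abundant member in counts, was at −0.35 (SE 0.294), and the inhibitor ATP5IF1 at −0.45 (SE 0.236). ATP5MG was at −0.75, whereas its near-copy ATP5MGL, with as few as 1 count in a library, was at −1.64 (SE 0.805) and did not pass. The ATP5MG call was lost without replicate 1 or 2. ATP5F1A polysome RNA was 1010.1, 442, 955 and 814 CPM with DMSO and 1015.6, 864, 853 and 1702.7 CPM with cercosporamide, so its highest value came from the shallow library. The TE of ATP5F1A rose by 0.59 (SE 0.266, edgeR adjusted p = 0.131), and without replicate 4 the change was 0.30 (adjusted p = 0.528).

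**Figure D2:**
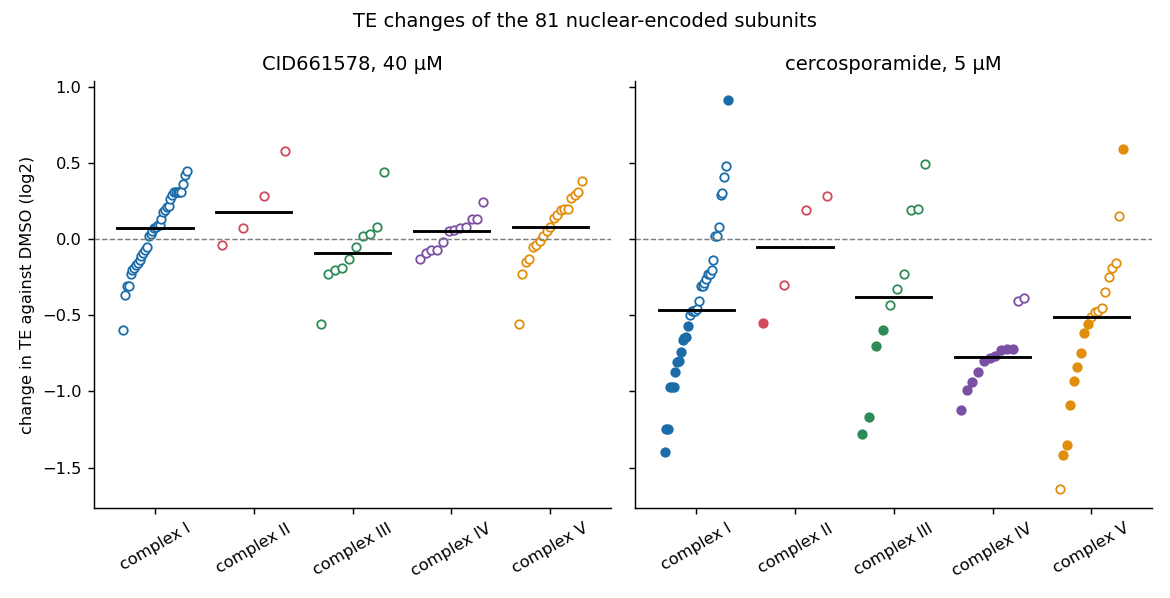
TE change against DMSO (log2, y axis) of the 81 members by complex (x axis) for CID661578 (left) and cercosporamide (right), with filled points for members called at adjusted p below 0.15 and more than 1.2-fold and bars for the complex medians. With cercosporamide all 12 points of complex IV lie below 0 and 10 are filled, and with CID661578 no point is filled.

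**Figure D3:**
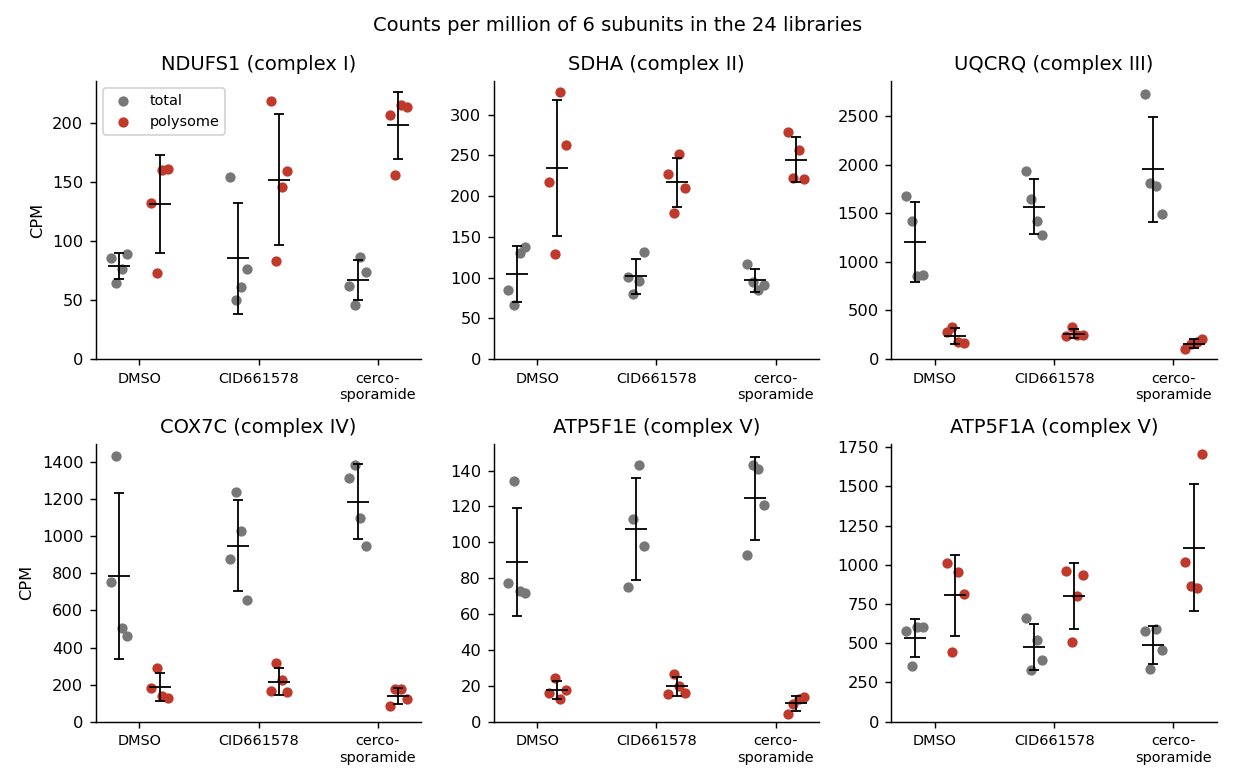
TMM-scaled CPM (y axis, from 0) of 6 subunits in the 24 libraries, grouped by treatment (x axis), grey for total and red for polysome RNA, with the mean and SD of 4 replicates in black. Polysome RNA lies above total RNA in every group mean of NDUFS1, SDHA and ATP5F1A and below it for UQCRQ, COX7C and ATP5F1E.

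The 2 fractions were also tested apart. In total RNA of cercosporamide cells, no member was called in either direction by edgeR at adjusted p below 0.15, where 0.0829% of all genes were, but the median was 0.30, against −0.05 over all genes, and 71 of 81 values lay above 0. At an unadjusted p below 0.05 (edgeR), 29 members were higher and none lower, beside 643 higher and 705 lower of 12058 genes. DESeq2 called 19 members higher, where it called 2.43% of all genes higher and 0.979% lower. Summed over all members, total RNA was 64528.2, 58885.2, 55052.3 and 48782.6 CPM with cercosporamide, above the DMSO sum of the same replicate in 4 of 4. The median change in total RNA was 0.50 in complex IV, 0.34 in complex III, 0.30 in complex V, 0.28 in complex I and 0.10 in complex II. It also went with coding length: members of up to 300 nt had a median of 0.51 (others 0.31), and those of 301 to 600 nt 0.29 (others 0.21). Spearman's rho with log2 coding length was −0.597 across members and −0.417 across 10094 genes. With the coding length trend removed from every library, the median of the members was 0.04. At an unadjusted p below 0.05 (edgeR), 5 members were then higher and 2 lower.

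In polysome RNA, 19 members were lower and 5 higher with cercosporamide (edgeR), where 16% of all genes were lower and 17.1% higher, and the median was −0.13. Without the replicate block the counts were 6 and 0, without replicate 2 they were 7 and 2, without replicate 1, 8 and 7, and without replicate 4, 32 and 1. Over all genes, 6.58% were lower and 9.37% higher without the block, and 10.3% and 12.6% without replicate 2. Without replicate 1 the shares were 14% and 13.5%, and without replicate 4, 13.8% and 14.7%. The 5 members higher with all replicates and the block were NDUFS1, NDUFA5, NDUFA9, CYC1 and ATP5F1A, named after their values were seen because they are few. Summed polysome RNA was 19554.3, 25972.2, 25414.5 and 28099.4 CPM, lower than the DMSO sum in replicates 1 and 2 and higher in replicates 3 and 4. Of the 37 members with a lower TE, 18 had the larger change in polysome RNA and 19, among them ATP5MK and UQCRQ, in total RNA. Also called lower in polysome RNA itself were 18 of the 37. The study sets apart as buffering a change in total RNA without one in polysome RNA, for which it predicts unchanged protein. The TE test used here does not separate buffering from a change in polysome RNA.

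**Figure D4:**
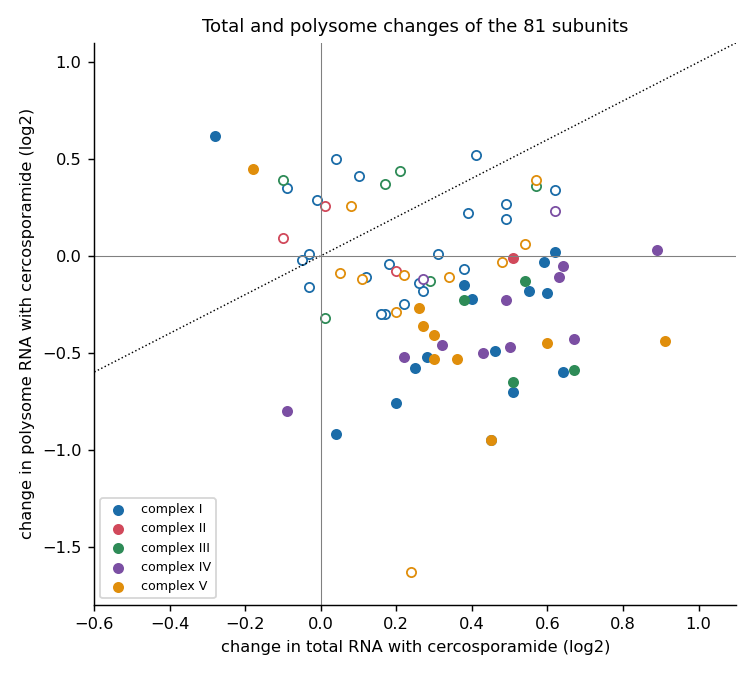
Change in polysome RNA (log2, y axis) against change in total RNA (log2, x axis) with cercosporamide for the 81 members, filled where the TE change was called; the dotted line marks equal change in both fractions. Most filled points lie below the line and right of 0, and the 2 with a higher TE, NDUFS1 and ATP5F1A, lie left of 0 and above it.

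With CID661578, no TE change of a nuclear-encoded subunit was called. None of the 81 members passed edgeR's quasi-likelihood test at the same thresholds, where 25 of 12058 genes did (0.207%), and DESeq2 called none. At an unadjusted p below 0.05 (edgeR) there was 1 member on each side, SDHD (0.58, SE 0.25) and NDUFB7 (−0.60, SE 0.289). Over all genes, 593 were higher and 476 lower at that p. The median was 0.05, and the replicate medians were −0.10, 0.21, −0.18 and 0.23. By complex the medians were 0.07, 0.17, −0.09, 0.05 and 0.08 for complexes I to V. COX7C was at −0.13 (SE 0.249), UQCRQ at −0.23 (SE 0.261), ATP5F1E at −0.13 (SE 0.269) and NDUFS1 at 0.21 (SE 0.246).

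Total RNA gave no call with CID661578 either by edgeR, where 0.473% of all genes were called, and DESeq2 also called none. At an unadjusted p below 0.05 (edgeR), 5 members were higher and none lower, beside 416 higher and 452 lower of 12058 genes. In polysome RNA 1 member was higher, where 6.34% of genes were higher and 3.93% lower. It was NDUFA5, an accessory subunit of complex I, at 0.72 (SE 0.229, edgeR adjusted p = 0.085), named after its value was seen. Its polysome RNA was 22.7, 31.3, 16.4 and 13.8 CPM with DMSO and 31.7, 41.5, 31.9 and 30.6 CPM with CID661578, higher in each replicate.

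The compounds were given at different doses, 40 and 5 µM, and share the DMSO controls. Tested directly, the TE change was higher with CID661578 than with cercosporamide for 37 members and lower for 2 (edgeR's quasi-likelihood test, adjusted p below 0.15 and more than 1.2-fold), where 7.93% and 7.57% of all genes were. The median difference was 0.56, and it was positive in each replicate (1.04, 0.76, 0.33 and 0.35). Without replicate 1 or without replicate 2 the number higher was 11, where 2.29% and 1.83% of all genes were higher. With all replicates, the TE change was higher with CID661578 for 10 of 12 members of complex IV, 5 of 10 of complex III, 8 of 19 of complex V, 13 of 36 of complex I and 1 of 4 of complex II. The difference was 1.35 for NDUFB1 (SE 0.245, edgeR adjusted p = 0.00541), 1.29 for ATP5F1E (SE 0.281) and 0.99 for COX7C (SE 0.251). The 2 that were lower were NDUFS1 (−0.70, SE 0.248) and CYC1 (−0.75, SE 0.293).

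The cercosporamide change in TE followed coding length. The 24 members of up to 300 nt had a median of −0.86 with 18 called lower, and the 195 other genes of that length a median of −0.74 with 53.8% called lower. Members of 301 to 600 nt were at −0.52 with 18 of 36 called lower (others −0.49, 38.1%), and those of 601 to 1200 nt at −0.18 with 0 of 12 called (others −0.09, 13.2%). The 9 members of 1201 to 2400 nt had a median of 0.29, and other genes of that length 0.22. NDUFV3, named after its value was seen, was the single member above 600 nt with a lower TE, at 1419 nt in the canonical transcript. Spearman's rho with log2 coding length was 0.704 across members and 0.333 across 10094 genes, and for GC content of the transcript −0.128 and −0.573. With the coding length trend removed from every library, 6 members were lower and 4 higher, and the median of the members was 0.03. In that setting, 8.58% of all genes were lower and 14.5% higher. With the GC trend removed, 33 members were lower and 7 higher, where 9.66% and 11.7% of all genes were. Of those 33, 24 were among the 37, so that 13 calls were lost and 9 gained.

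**Figure D5:**
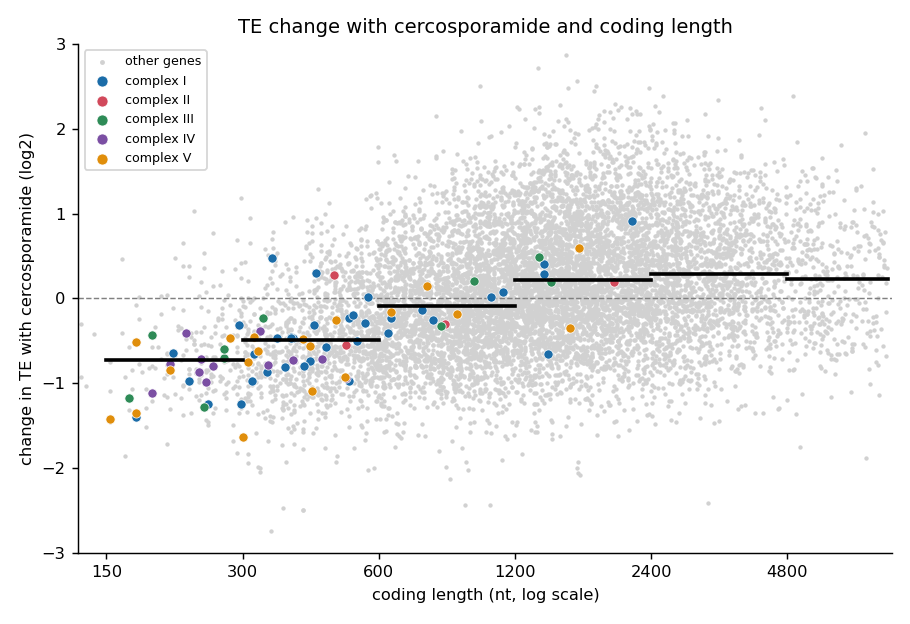
TE change with cercosporamide (log2, y axis) against coding length in nt (log scale, x axis), with members coloured by complex, other tested genes in grey and black bars for the medians of the other genes within length ranges. The medians of the other genes pass from −0.74 at up to 300 nt to 0.22 at 1201 to 2400 nt, and the members lie around them. Genes outside the axes are not drawn.

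The start-codon letters went with a smaller share of calls. Of the 13 members with ATGGCGGC at the start, 3 had a lower TE with cercosporamide, with a median of −0.26, and of the 68 without it 34 did, with a median of −0.56. Members with these letters also had longer coding regions, with a median of 567 nt against 384 nt. Of the windows printed above, NDUFS6 (−0.81, SE 0.262) was called lower, and SDHB, NDUFA9 and UQCR10 were not.

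Other genes of the pathway were read from lists, whose counts stand beside 12.6% of all tested genes with a lower and 15.8% with a higher TE under cercosporamide, and 0.207% called with CID661578. Of 52 assembly factors, 17 had a lower TE with cercosporamide and 2 a higher TE (median −0.37), and none was called with CID661578. The lower ones include, as examples, SURF1 (−1.29, SE 0.376) and COX17 (−0.80, SE 0.238), and the higher ones were NDUFAF1 (1.09, SE 0.316) and SCO1 (0.60, SE 0.26). Of 15 genes for electron carriers and ubiquinone synthesis, 3 were higher (COQ3, COQ10B and ETFDH) and 1 lower (COQ9). Of 13 regulators of respiratory chain genes, the 3 called were higher, GABPA at 1.49, TFB2M at 1.14 and TFAM at 0.67. Of 17 enzymes around the tricarboxylic acid cycle, 5 were higher and none lower, with DLD at 1.57 (SE 0.245) and SUCLA2 at 1.49 (SE 0.27).

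Most of the 13 subunits encoded by mitochondrial DNA, which are translated inside the organelle, were lower with each compound. Their TE value, polysome-fraction RNA beyond total RNA, was lower for 10 of 13 with CID661578 (median −2.20) and for 11 of 13 with cercosporamide (median −1.44). With CID661578 the subunits of complex IV from this genome were at −2.38 (COX1), −1.74 (COX2) and −2.34 (COX3), and the 12 nuclear-encoded ones lay between −0.13 and 0.24.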

How the data were processed

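The authors removed adapters and ribosomal RNA reads with BBDuk, aligned Smart-seq2 paired-end reads to hg38 with HISAT2 and deposited raw read counts per RefSeq gene symbol from featureCounts in RSubread at default settings, with replicates kept apart. From these counts, genes with a zero count in any of the 24 libraries were left out, libraries were TMM-scaled, and edgeR 4.0.16 quasi-likelihood models (R 4.3.3) were fitted to all 12058 genes. The TE model held a term for each of the 12 plates, a polysome term for each of the 4 replicates and a polysome term for each compound. Total and polysome RNA were each fitted on 12 libraries with the replicate as a block, as in the study's own model. p-values were Benjamini-Hochberg adjusted over all genes; thresholds were an adjusted p of 0.15, with 1.2-fold for TE. DESeq2 1.42.0, other scalings and filters, trend corrections, analysis of partial variance (limma 3.58.1) and leaving out each replicate were alternatives. The models were tested on simulated data.

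Counting error was largest in the polysome library of cercosporamide replicate 4. No pair of replicates was a duplicate library: chi-square per degree of freedom between replicates lay between 13.3 and 99.7. Coding lengths, leaders and sequences came from GENCODE v44 canonical transcripts, matched by symbol. Some items are not reported here. All 24 columns were used. The TE value is on the log2 scale of the model. Replicates are 4 biological replicates by the labels; their p-values measure the spread between cultures of a single line.

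The members, the gene lists and the tests were chosen with earlier results of these data known. Genes named in the text are a fixed list of catalytic, core and regulatory subunits, the lowest and highest TE change in each complex with each compound, the 3 highest and 3 lowest in polysome relative to total RNA with DMSO, members called in total RNA, paralog pairs and the 5 with the smallest p for the difference between compounds; others are said to be named after their values were seen or appear as examples of a printed sequence or a list.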

Additional observations from a re-analysis of the deposited data

Results flagged for a closer look

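The direct test of the difference between compounds gave a higher TE change with CID661578 than with cercosporamide for 37 members and a lower one for 2. The 5 members with the smallest p were NDUFB1 (1.35), NDUFC1 (1.29), ATP5MK (1.21), ATP5F1E (1.29) and UQCR11 (1.04), all accessory or small subunits with coding regions of 153 to 228 nt. Each is the difference of the log2 TE changes, and for each the cercosporamide change was called lower and the CID661578 change was not called.

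Of 54 groups of 4 values checked for a single distant value, 2 had one. The groups share libraries and genes, and both flagged sums come from the same library, so their number cannot be set against a chance rate. The polysome library of CID661578 replicate 2 had a summed level of 7133.1 CPM for complex IV and of 31314.2 CPM for all members, above the other 3 replicates (4418.9 to 4858.2 and 24841.2 to 25625.5 CPM).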

How the results depend on the processing

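The number of members with a lower TE under cercosporamide was 37, and stayed between 26 and 45 under 8 of the alternatives that keep all replicates. The share of all genes called lower lay between 5.35% and 15.6% in those 8. With the GC trend removed the number of members was 33, of which 24 were among the 37. It was 6 with the coding length trend removed and 15 by analysis of partial variance, where 8.58% and 11.5% of all genes were lower. Members with a higher TE numbered 2, and 1 without the replicate block, with DESeq2, with DESeq2's size factors in edgeR, with no filter, with filterByExpr, with only the groups compared and at an adjusted p of 0.05, 7 with the GC trend removed and 4 with the length trend removed. The share of all genes higher lay between 4.56% and 14.7% in the settings with 1. It was 11.7% with the GC trend removed and 14.5% with the length trend removed. For CID661578 against cercosporamide, 37 and 2 became 0 higher with the length trend removed, 16 and 0 by analysis of partial variance, and the 2 lower became 1 with DESeq2's size factors or no filter and 0 at an adjusted p of 0.05. Over all genes, 2.46% were higher with the length trend removed, and 5.81% higher and 6.39% lower by analysis of partial variance. The shares lower were 5.89% with DESeq2's size factors, 1.77% with no filter and 2.7% at an adjusted p of 0.05. In polysome against total RNA of DMSO, removing the length trend turned 6 higher and 61 lower into 20 and 10, where 21.3% and 23.7% of all genes were called. Fitting only the groups compared gave no value for CID661578 against cercosporamide, for which it was not planned. The causes were not tested.

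In total RNA with cercosporamide, 0 higher became 19 with DESeq2, 3 with its size factors, 5 with no filter and 22 with the GC trend removed. The shares of all genes called higher in these settings were 2.43%, 0.299%, 0.274% and 3.13%. In polysome RNA with CID661578, 1 higher became 0 without the replicate block, with the GC trend removed and at an adjusted p of 0.05, 2 with no filter and 5 with only the groups compared. The shares of all genes higher in these settings, in the same order, were 0.29%, 1.72%, 2.16%, 2.6% and 9.06%. In polysome RNA with cercosporamide, 5 higher and 19 lower became 0 and 6 without the replicate block, 9 higher with DESeq2, 8 and 10 with no filter, 10 higher with filterByExpr, 1 and 11 with only the groups compared, 19 and 6 with the length trend removed, and 1 and 11 at an adjusted p of 0.05. Over all genes, 9.37% were higher and 6.58% lower without the block, 18% higher with DESeq2 and 16.1% higher with filterByExpr. With no filter the shares higher and lower were 6.95% and 4.38%, and with only the groups compared 12.4% and 10%. They were 17.9% and 15.9% with the length trend removed, and 11% and 8.01% at an adjusted p of 0.05.

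Without the replicate block, the counts that moved by over 1.5 times are those given above, for the higher TE under cercosporamide and for polysome RNA with either compound, and it changed no other count by that much. In 13 of 16 comparisons of same-numbered libraries across treatments, deviations from the group means correlated at over 0.1, with a range of −0.0186 to 0.584, so the numbers may or may not mark a shared day.

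Leaving out each replicate in turn gave 18 to 48 lower and 0 to 3 higher for TE with cercosporamide, 11 to 34 higher and 0 to 2 lower for CID661578 against cercosporamide, 6 to 8 higher and 55 to 62 lower in polysome against total RNA of DMSO, 0 to 1 higher in total RNA and 0 to 1 in polysome RNA with CID661578, 0 to 16 higher in total RNA with cercosporamide (16 without replicate 2), and 1 to 7 higher and 7 to 32 lower in polysome RNA with cercosporamide. TE with CID661578 gave 0 in each. Over all genes in the same fits, 6.37% to 13.9% were lower and 8.66% to 13.8% higher for TE with cercosporamide. For CID661578 against cercosporamide, 1.83% to 7.14% were higher and 1.43% to 7.12% lower. In polysome against total RNA of DMSO, 22.1% to 25.8% were higher and 24.3% to 27.1% lower. In polysome RNA with cercosporamide, 12.6% to 14.7% were higher and 10.3% to 14% lower. In total RNA with cercosporamide, 1.02% were higher without replicate 2.

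Named genes that changed sign were, for cercosporamide with the length trend removed, ATP5IF1 (0.22), ATP5PF (0.04), COX6A1 (0.26), NDUFA4 (0.07), UQCR10 (0.47), UQCRH (0.04) and UQCRHL (0.15); with the GC trend removed, NDUFB5 (−0.50) and SDHD (−0.23); by analysis of partial variance, NDUFB7 (0.14) and SDHC (0.03); and for CID661578 with the GC trend removed, NDUFS7 (0.30). The median of all genes shifted by −0.14 with no filter and by −0.10 with filterByExpr for TE with cercosporamide. Depth limits ATP5MGL most.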

Other observations

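Processed copies drew reads too. Among the pseudogenes left out, COX6A1P2 had 460 to 9425 counts per library, beside 1276 to 30877 for COX6A1, and UQCRFS1P1 had 92 to 1123, beside 279 to 3514 for UQCRFS1. NDUFA4P1 had 29 to 638 counts, with 1038 to 27481 for NDUFA4. Whether these reads come from the parent mRNAs was not tested.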
